A study of Homo sapiens with 6 samples.

Results

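The miR-320 family was followed through 6 small RNA libraries from exosomes, the small vesicles that cells release, of HCT116, a human colorectal cancer line. Its members were taken by name from the deposited count tables as the entries hsa-miR-320a, hsa-miR-320b, hsa-miR-320c, hsa-miR-320d and hsa-miR-320e, which gave 5 of the 2575 listed. Cells of the 3 libraries titled ETBF had shared a culture for 6 h with ETBF, enterotoxigenic Bacteroides fragilis, a gut bacterium that secretes a toxin, at a multiplicity of infection of 500. Cells of the 3 libraries titled untreated had received the bacterial medium without ETBF. All libraries came from 1 cell line at passage 16 to 19, and the labels do not say that replicates were separate cultures. The file names give the opposite group to the sample titles in 6 of 6 libraries. Groups were assigned from the titles. Should the file names be the correct ones, each direction given here turns round, with sizes, errors and p-values as they stand.

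MicroRNAs are short RNAs that guide Argonaute proteins to messenger RNAs, chiefly through the seed, bases 2 to 8 from the 5′ end. Most are cut from long primary transcripts by the nuclear enzyme Drosha. The precursor of miR-320a is the textbook exception: its hairpin starts at the transcription start, carries the 5′ cap, leaves the nucleus through Exportin 1 and needs only Dicer, which then yields the 3′ arm. The other members have loci of their own, and a count table of mature miRNAs does not measure how any of them was made, so the name Drosha-independent could not be checked here.

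The mature sequences show why the members are hard to separate in sequencing data. The seed is in capitals, and the sequences are those of RefSeq on GRCh38.p14, where 4 of the 5 members matched and miR-320a did not. miR-4429 is added because it is the other miRNA in that table with the same seed as miR-320b.
miR-320b: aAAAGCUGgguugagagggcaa
miR-320c: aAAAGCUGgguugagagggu
miR-320d: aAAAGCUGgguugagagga
miR-320e: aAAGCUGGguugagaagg
miR-4429: aAAAGCUGggcugagaggcg
With positions counted from 1 at the 5′ end of miR-320b and the base of miR-320b written first, miR-320c differs by C20U and miR-320d by G19A, so miR-320b and miR-320c share their first 19 bases. miR-320e starts 1 base later and differs by G17A, and its bases 2 to 8 are therefore shifted against the others. A target that pairs with the seed of miR-320b can pair with that of miR-320c and miR-320d as well.

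Some members are also encoded more than once. RefSeq lists 2 loci for miR-320b, both on chromosome 1, 2 for miR-320c, both on chromosome 18, and 2 for miR-320d, on chromosomes 13 and X. miR-320e, on chromosome 19, has 1, as has miR-320a. In GENCODE release 29, MIR320B2 lies in an intron of NVL on the same strand. MIR320C1 and MIR320C2 lie in introns of ABHD3 and OSBPL1A on the opposite strand, and MIR320E in an intron of PRKD2 on the same strand. MIR320B1, MIR320D1 and MIR320D2 are intergenic. No coordinates are given, because both references use another build than the submitters' GRCh37.p5. The hairpins, with the mature part in capitals, show that the loci of a pair differ outside the mature miRNA and not in it.
MIR320B1: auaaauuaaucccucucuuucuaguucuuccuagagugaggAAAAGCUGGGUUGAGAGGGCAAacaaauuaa
MIR320B2: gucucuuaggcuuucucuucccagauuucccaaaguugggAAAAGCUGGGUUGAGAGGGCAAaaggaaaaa
MIR320C1: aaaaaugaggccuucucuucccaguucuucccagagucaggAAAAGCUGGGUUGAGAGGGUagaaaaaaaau
MIR320C2: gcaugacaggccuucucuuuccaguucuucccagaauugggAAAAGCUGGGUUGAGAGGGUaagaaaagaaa
A read that covers only the mature part fits both loci of its pair equally well.

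The deposited counts were examined for reads counted at both loci. The counts of miR-320b were even in 6 of 6 libraries and those of miR-320c in 6 of 6, whereas those of miR-320a were even in 2 of 6. Among all entries with counts from 8 to 90, the range of miR-320b and miR-320c, 50.1% of 557 counts were even where the miRNA has 1 locus and 84.1% of 44 where it has 2. These 44 include the 6 counts of miR-320b and the 6 of miR-320c, all even, so the 84.1% is not independent of them. The even counts are what a read counted at each of 2 loci would give. Values of miR-320b and miR-320c are therefore also given after division by their number of loci, a choice made after seeing the data.

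Library totals ran from 221981 to 417321 counts in the libraries titled ETBF and from 200207 to 368923 in those titled untreated. The detected members rest on 8 to 240 counts in a library. Levels are in CPM, counts per 1000000 counts of a library whose size is scaled by the trimmed mean of M-values (TMM). On this scale 3 counts correspond to 8.29 to 14.6 CPM. The labelled cell type was checked on gut epithelial miRNAs: 9 of 9 marker entries were detected, with a summed level of 38404 to 43834 CPM in libraries titled ETBF and 46167 to 47628 CPM in those titled untreated, and 1 of the 9, miR-375, fell. Over all 195 tested entries 28 passed (14.4%), 7 of them lower. Markers of blood cells, with at least 3 counts in some library for 6 of 7 entries, summed to 527.8 to 693.8 CPM in libraries titled ETBF and 669.3 to 729.2 CPM in those titled untreated, and 0 of the 5 tested passed. Muscle markers summed to 15397 to 18776 CPM in libraries titled ETBF and 19536 to 20919 CPM in those titled untreated, with 0 of 4 passing. The liver marker miR-122-5p stood at 4804 to 5062 CPM in libraries titled ETBF and 5420 to 6556 CPM in those titled untreated, and did not pass. Endothelial markers summed to 831.8 to 923.0 CPM in libraries titled ETBF and 867.3 to 1041 CPM in those titled untreated, and 0 of 2 passed. The muscle marker miR-1 averaged 17042 CPM over all libraries, above miR-203a, the highest entry on the gut list, at 11925 CPM. miR-203a is also a miRNA of squamous epithelium, as is miR-205-5p, which averaged 2782 CPM. The gut markers alone therefore do not settle the cell type. The part of the lower marker sums of libraries titled ETBF in the results on miR-320 was not tested. More vesicles and more of a miRNA in each vesicle cannot be told apart in these libraries.

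miR-320a, the founding and most abundant member, rose by a small amount in the libraries titled ETBF. Its gene lies on chromosome 8 outside other genes, 61 bases in GENCODE release 29 from POLR3D, an RNA polymerase III subunit gene on the other strand. It held 221, 156 and 240 counts in titled ETBF replicates 1 to 3, against 121, 201 and 171 in titled untreated replicates 1 to 3. On the TMM scale these were 744.3, 703.8 and 743.3 CPM in the libraries titled ETBF and 588.7, 555.2 and 547.6 CPM in the libraries titled untreated. The TMM factors were 1.19, 1.00 and 0.776 in titled ETBF replicates 1 to 3. They were 1.03, 0.984 and 1.07 in titled untreated replicates 1 to 3. On this scale all 3 libraries titled ETBF were above all 3 titled untreated, and the values within each group were close. Counting error alone allows more spread than that, with an exact 95% Poisson interval of 132.5 to 182.5 for the 156 counts of titled ETBF replicate 2. By library total alone, without TMM factors, the groups overlapped. Titled ETBF replicate 3 held 240 of 417321 counts, a lower share than the 121 of 200207 in titled untreated replicate 1. The means were 730.5 ± 23.1 CPM in the libraries titled ETBF and 563.8 ± 21.8 CPM in those titled untreated (SD, n = 3 each), a rise of 1.30-fold. The log2 fold change was 0.38 with a standard error (SE) of 0.09 and a 95% interval of 0.17 to 0.59 (edgeR quasi-likelihood test, adjusted p = 0.0286). This call was near its threshold. It was lost without titled ETBF replicate 1 (0.34, adjusted p = 0.0591), titled ETBF replicate 3 (0.36, adjusted p = 0.0754), titled untreated replicate 2 (0.37, adjusted p = 0.0981) or titled untreated replicate 3 (0.30, adjusted p = 0.196). With library size as the sole scaling it was also lost (0.32, SE 0.23, adjusted p = 0.462).

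By mean level over the 6 libraries miR-320a ranked 72 of the 195 entries with enough counts to test. Its neighbours in level were miR-340-5p and miR-93-5p above and miR-181b-5p and miR-381-3p below, and none of these passed. miR-340-5p had a log2 fold change of 0.47 with an SE of 0.16 (edgeR, adjusted p = 0.0739), larger than that of miR-320a. miR-93-5p, of the miR-106b cluster, averaged 657.2 CPM in libraries titled ETBF and 657.8 CPM in those titled untreated (log2 fold change 0.00407, SE 0.10, adjusted p = 0.969). miR-381-3p, from the imprinted 14q32 cluster, averaged 575.2 CPM in libraries titled ETBF and 688.9 CPM in those titled untreated (log2 fold change -0.26, SE 0.11, adjusted p = 0.122).

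miR-320b showed the firmest difference of the family. It held 78, 44 and 90 counts in titled ETBF replicates 1 to 3, against 26, 44 and 30 in titled untreated replicates 1 to 3. Titled ETBF replicate 2 and titled untreated replicate 2 had the same count from libraries of unequal depth. On the TMM scale, miR-320b stood at 262.7, 198.5 and 278.8 CPM in the libraries titled ETBF and at 126.5, 121.5 and 96.1 CPM in the libraries titled untreated. The groups did not overlap, and titled ETBF replicate 2 was the nearest to the untreated side. The means were 246.6 ± 42.5 CPM in the libraries titled ETBF and 114.7 ± 16.3 CPM in those titled untreated (SD, n = 3 each), 2.19-fold higher with ETBF. The log2 fold change was 1.13 with an SE of 0.19 and a 95% interval of 0.69 to 1.57 (edgeR, adjusted p = 0.00578). It passed in 19 of 19 settings, with a log2 fold change between 0.95 and 1.33 and a highest adjusted p of 0.0244. The 19 count this fit itself and a summing of copies that left it unchanged.

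If reads of miR-320b were counted at both of its loci, fewer reads stand behind these values. Divided by 2 loci, the counts were 39, 22 and 45 in titled ETBF replicates 1 to 3 and 13, 22 and 15 in titled untreated replicates 1 to 3. Exact 95% Poisson intervals, which cover counting error only, ran from 13.8 to 33.3 for the 22 counts of titled ETBF replicate 2 and from 6.92 to 22.2 for the 13 of titled untreated replicate 1. Refitted with every entry divided by its number of loci, miR-320b had a log2 fold change of 1.15 with an SE of 0.23 (edgeR, adjusted p = 0.00436) and miR-320a one of 0.40 with an SE of 0.10 (edgeR, adjusted p = 0.0185). Both calls held in that fit.

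miR-320c had the highest fitted fold change and the least certain one. It held 8, 32 and 22 counts in titled ETBF replicates 1 to 3, against 8, 10 and 8 in titled untreated replicates 1 to 3. In CPM these were 26.9, 144.4 and 68.1 in the libraries titled ETBF and 38.9, 27.6 and 25.6 in the libraries titled untreated. Titled ETBF replicate 1 lay within the untreated range while replicates 2 and 3 lay above it, so the groups overlapped. The means were 79.8 ± 59.6 CPM in libraries titled ETBF and 30.7 ± 7.17 CPM in those titled untreated (SD, n = 3 each). The log2 fold change was 1.33 with an SE of 0.56 and a 95% interval of 0.05 to 2.61, and it did not pass (edgeR, unadjusted p = 0.0432, adjusted p = 0.134).

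Single libraries set the size of that difference. Without titled ETBF replicate 1 the log2 fold change of miR-320c was 1.73 and passed (edgeR, adjusted p = 0.000902), and without titled ETBF replicate 2 it was 0.72 (adjusted p = 0.371). Divided by loci, the counts were 4, 16 and 11 in titled ETBF replicates 1 to 3 and 4, 5 and 4 in titled untreated replicates 1 to 3, too few to enter the refit. For such counts the interval is wide, from 1.09 to 10.2 for 4 counts.

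miR-320d and miR-320e were listed at 0 in each of the 6 libraries and were not tested. At 3 counts, a count of 0 allows a level of up to 9.29 to 13.5 CPM in the libraries titled ETBF and 8.29 to 14.6 CPM in those titled untreated. As a share of the family it allows up to 0.852 to 1.29% in the libraries titled ETBF and 1.18 to 1.94% in those titled untreated. These limits take each count as a separate read. If reads of miR-320d were counted at each of its 2 loci, its limits would be higher. miR-4429 also had 0 counts in all libraries, so miR-320b and miR-320c were the detected entries with this seed among the sequences listed above.

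**Figure D1:**
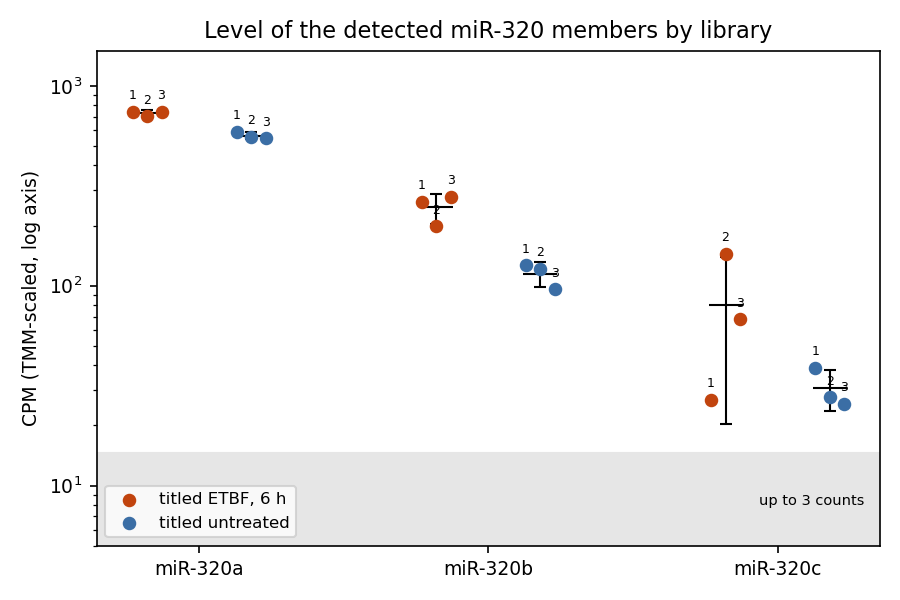
Level of miR-320a, miR-320b and miR-320c in each library, in CPM on a log axis; points are libraries numbered by replicate, orange for titled ETBF and blue for titled untreated, bars are the mean ± SD (n = 3), and the grey band ends at 14.6 CPM, the highest level that 3 counts stand for. On this TMM scale the groups are apart for miR-320a and miR-320b and overlap for miR-320c, where titled ETBF replicate 1 is at 26.9 CPM and replicate 2 at 144.4 CPM.

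Of the 5 family entries, 3 could be tested, and 2 of these 3 rose; 14.4% of all 195 tested entries passed in either direction and 10.8% passed as higher. On the TMM scale, groups that did not overlap, with the libraries titled ETBF higher, were seen for 2 of the 3, against 19.5% of all tested entries. The median log2 fold change was 1.13 over the 3 tested members, which is the value of miR-320b itself, and -0.03 over all tested entries. Of all tested entries, 6.67% had a log2 fold change at least as high as that of miR-320b. The 3 are not counted as independent of one another. miR-320b and miR-320c share their first 19 bases, so reads shortened at the 3′ end could be placed at either. No mature sequence of miR-320a was at hand to compare.

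**Figure D2:**
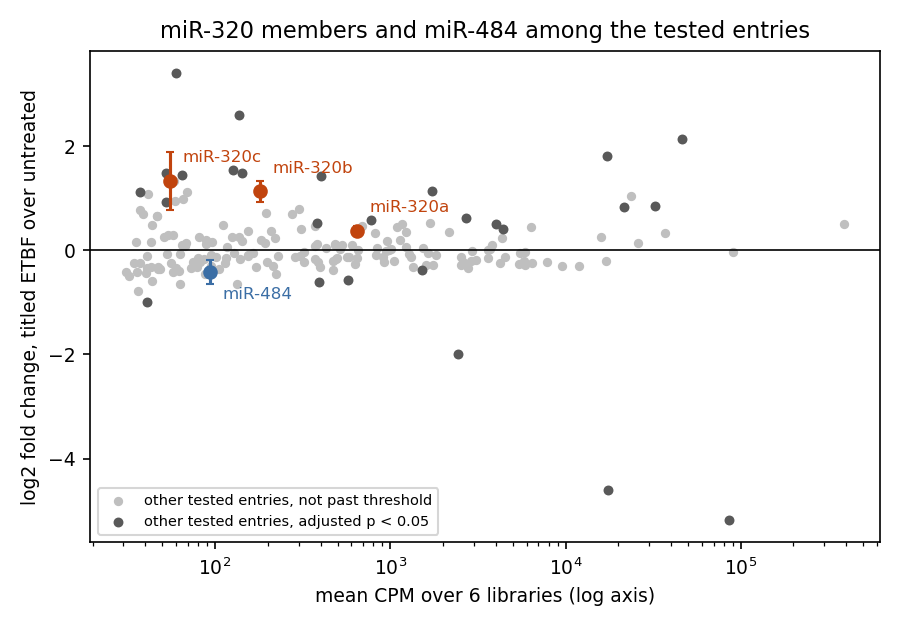
Log2 fold change of the libraries titled ETBF over those titled untreated (y axis) against mean CPM on a log axis (x axis) for the 195 tested entries; dark grey points passed at an adjusted p under 0.05, and bars on the coloured points are SE. miR-320a (0.38), miR-320b (1.13) and miR-320c (1.33) lie above 0, and miR-484 (-0.42) lies below it.

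The order of the members was the same in every library, with miR-320a above miR-320b and miR-320b above miR-320c in 6 of 6. These are levels on the count scale, with no division by length, as the listed mature miRNAs are 18 to 22 bases long. After division by loci, the exact 95% Poisson intervals of miR-320a and miR-320b were apart in 6 of 6 libraries. Those of miR-320b and miR-320c were apart in 3 and overlapped in 3, namely titled ETBF replicate 2 and titled untreated replicates 1 and 3.

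miR-320a took a smaller share of its family in the libraries titled ETBF. It was 72.0, 67.2 and 68.2% of the family's counts in titled ETBF replicates 1 to 3 and 78.1, 78.8 and 81.8% in titled untreated replicates 1 to 3. Wilson 95% intervals, which cover counting error only and take each count as a separate read, were 61.0 to 73.0% for titled ETBF replicate 2, the lowest, and 76.0 to 86.5% for titled untreated replicate 3, the highest. Of the 9 pairs of libraries with 1 from each group, 5 had overlapping intervals. After division by loci all 9 pairs overlapped, with 74.3 to 85.4% for titled ETBF replicate 2 and 84.9 to 93.5% for titled untreated replicate 3. Overlapping intervals do not show that 2 libraries have the same share, and no pair of libraries was tested. The shares averaged 69.1 ± 2.51% in the libraries titled ETBF and 79.6 ± 1.98% in those titled untreated (SD, n = 3 each).

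The rest of the family was divided differently in different libraries. miR-320b was 25.4, 19.0 and 25.6% of the family in titled ETBF replicates 1 to 3 and 16.8, 17.3 and 14.4% in titled untreated replicates 1 to 3. miR-320c was 2.61, 13.8 and 6.25% in titled ETBF replicates 1 to 3 and 5.16, 3.92 and 3.83% in titled untreated replicates 1 to 3. Titled ETBF replicate 2 had the lowest share of miR-320b and the highest of miR-320c in its group. Divided by loci, miR-320a made up 81.7 ± 1.74% of the family in the libraries titled ETBF and 88.6 ± 1.22% in those titled untreated (SD, n = 3 each). miR-320b then made up 13.8 ± 2.12% in libraries titled ETBF and 8.99 ± 0.954% in those titled untreated.

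**Figure D3:**
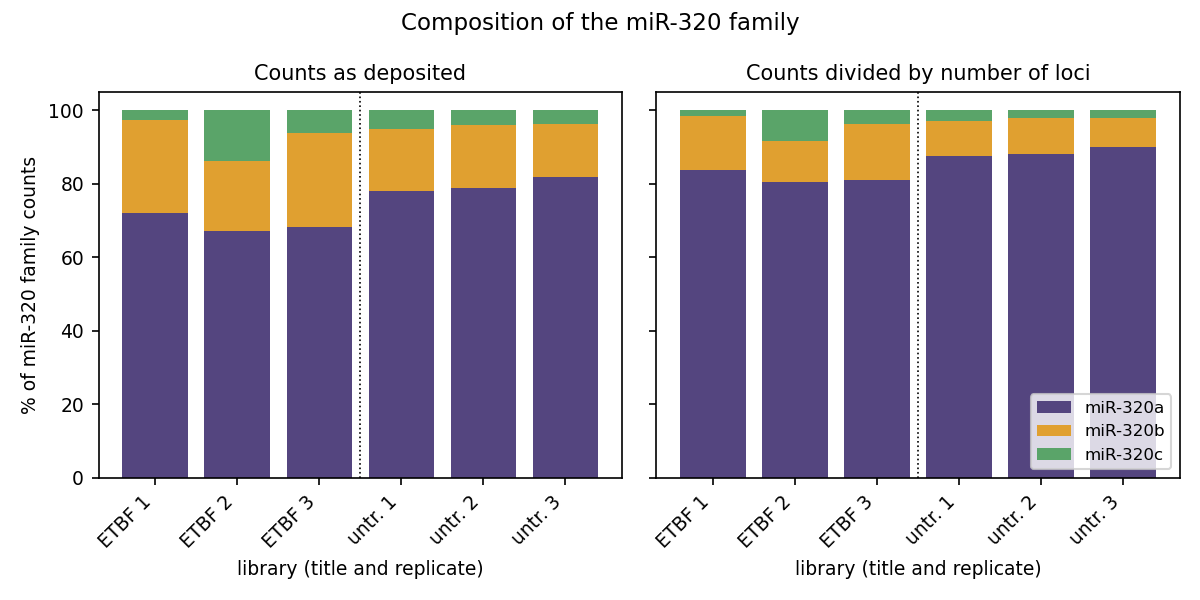
Share of miR-320a, miR-320b and miR-320c in the summed counts of the family (y axis, percent) in each library (x axis), from the counts as deposited on the left and from counts divided by the number of loci on the right. The miR-320a share is 67.2 to 72.0% in libraries titled ETBF and 78.1 to 81.8% in those titled untreated on the left. It stays lower in libraries titled ETBF on the right.

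The balance of miR-320b and miR-320a needs no library scaling, because both come from the same library. The log2 ratio of miR-320b to miR-320a counts, with 0.5 added to each, was -1.50, -1.81 and -1.41 in titled ETBF replicates 1 to 3 and -2.20, -2.18 and -2.49 in titled untreated replicates 1 to 3. All 3 ratios of the libraries titled ETBF were above all 3 of those titled untreated. The means were -1.57 ± 0.21 in the libraries titled ETBF and -2.29 ± 0.18 in those titled untreated (SD, n = 3 each), a difference of 0.72 (exact permutation test, two-sided, p = 0.1, the smallest p that 3 against 3 libraries allow). This design cannot pass a threshold of 0.05 for a single value. Counting a read at each locus adds the same amount to every library's ratio and leaves the difference nearly as it is.

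**Figure D4:**
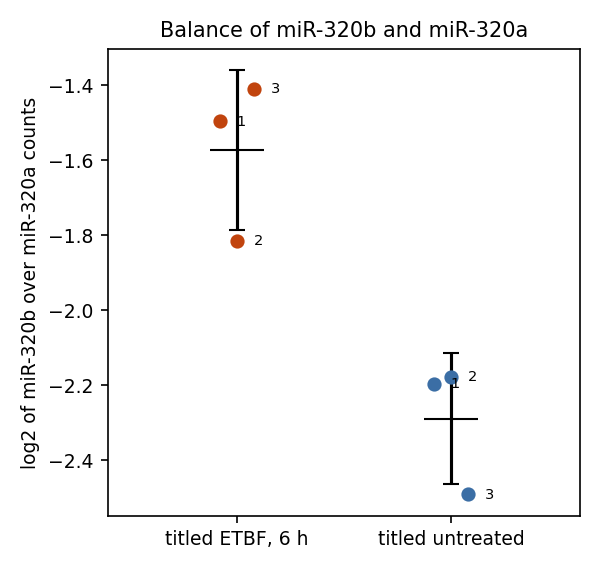
Log2 ratio of miR-320b to miR-320a counts with 0.5 added (y axis) in the 3 libraries titled ETBF and the 3 titled untreated; points are libraries numbered by replicate and bars the mean ± SD. The libraries titled ETBF lie between -1.81 and -1.41 and those titled untreated between -2.49 and -2.18.

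Summed, the family was a minor cargo of these exosomes. It made up 0.123, 0.105 and 0.0843% of all counts in titled ETBF replicates 1 to 3 and 0.0774, 0.0691 and 0.0712% in titled untreated replicates 1 to 3. All counts include miR-7641, which averaged 4599 CPM in libraries titled ETBF and 167001 CPM in those titled untreated. They also include miR-6087 (1371 and 33516 CPM, in that order) and miR-1246 (971.8 and 3890 CPM). The part of these entries in the percentages was not tested. On the TMM scale the summed level was 1034, 1047 and 1090 CPM in the libraries titled ETBF and 754.1, 704.3 and 669.3 CPM in the libraries titled untreated. The means were 1057 ± 29.6 CPM in the libraries titled ETBF and 709.2 ± 42.6 CPM in those titled untreated (SD, n = 3 each), a ratio of 1.49, given as a description because the members were chosen with results known.

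Other miRNAs that bypass a canonical step were mostly too rare to compare. The list held miR-484, whose precursor is capped like that of miR-320a, mirtrons, which splicing releases from short introns, miRNAs within small nucleolar RNAs, and miR-451a, which is matured by AGO2 in place of Dicer. Of its 30 entries, 17 had 0 counts in all libraries and 28 were not tested, with at most 15 counts in any library. Of the 2 tested, 0 passed in either direction by edgeR or DESeq2, and 0 had an unadjusted edgeR p under 0.05. Over all 195 tested entries 14.4% passed and 66 had such an unadjusted p. Nothing is read from 0 of 2. Their median log2 fold change was -0.24.

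miR-484 held 29, 19 and 19 counts in titled ETBF replicates 1 to 3, against 22, 40 and 32 in titled untreated replicates 1 to 3. In CPM it stood at 97.7, 85.7 and 58.8 in the libraries titled ETBF and at 107.0, 110.5 and 102.5 in the libraries titled untreated. The groups did not overlap, which was so for 39% of all tested entries in either direction. The log2 fold change was -0.42 with an SE of 0.23 and a 95% interval of -0.94 to 0.11 (edgeR, adjusted p = 0.251), while the interval of miR-320a was 0.17 to 0.59. The difference between the 2 miRNAs was not tested. miR-451a, a red blood cell miRNA, averaged 123.5 ± 32.8 CPM in libraries titled ETBF and 131.5 ± 23.3 CPM in those titled untreated (SD, n = 3 each), with a log2 fold change of -0.06 and an SE of 0.24 (edgeR, adjusted p = 0.862). Under upper-quartile scaling, or scaling on other-tissue markers, its log2 fold change was above 0.

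Among tested entries with a mean of at least 100 CPM, a few followed the family most closely over the 6 libraries. By Pearson correlation of log2(CPM + 1), the closest to miR-320a were miR-320b (0.98), miR-29b-3p (0.98), miR-7-5p (0.97), let-7f-5p (0.97) and miR-149 (0.94). The closest to miR-320b were let-7f-5p (0.99), miR-320a (0.98), miR-29b-3p (0.98), miR-7-5p (0.95) and let-7a-5p (0.93). miR-320c had 0.53 with miR-320a and 0.45 with miR-320b. The points share 6 libraries in 2 groups and 1 scaling, so these values mostly restate which entries differ between the groups, and they carry no test.

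The entries closest to miR-320a or miR-320b in profile differed in the size of change. miR-7-5p averaged 75153 ± 5094 CPM in libraries titled ETBF and 17058 ± 1187 CPM in those titled untreated (SD, n = 3 each), a log2 fold change of 2.14. miR-149 averaged 234.9 ± 37.4 CPM in libraries titled ETBF and 37.4 ± 7.13 CPM in those titled untreated, a log2 fold change of 2.59 (SE 0.23, edgeR, adjusted p = 8.18e-05). miR-29b-3p, which represses collagen and other matrix genes, averaged 350.0 ± 14.1 CPM in libraries titled ETBF and 265.9 ± 24.4 CPM in those titled untreated, with a log2 fold change of 0.41 close to that of miR-320a (SE 0.13, edgeR, adjusted p = 0.0601). let-7f-5p had a log2 fold change of 0.33 (SE 0.11, edgeR, adjusted p = 0.0746) and let-7a-5p, close to miR-320b only in these lists of 5, one of 0.25 (SE 0.10, edgeR, adjusted p = 0.111), and neither passed.

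**Figure D5:**
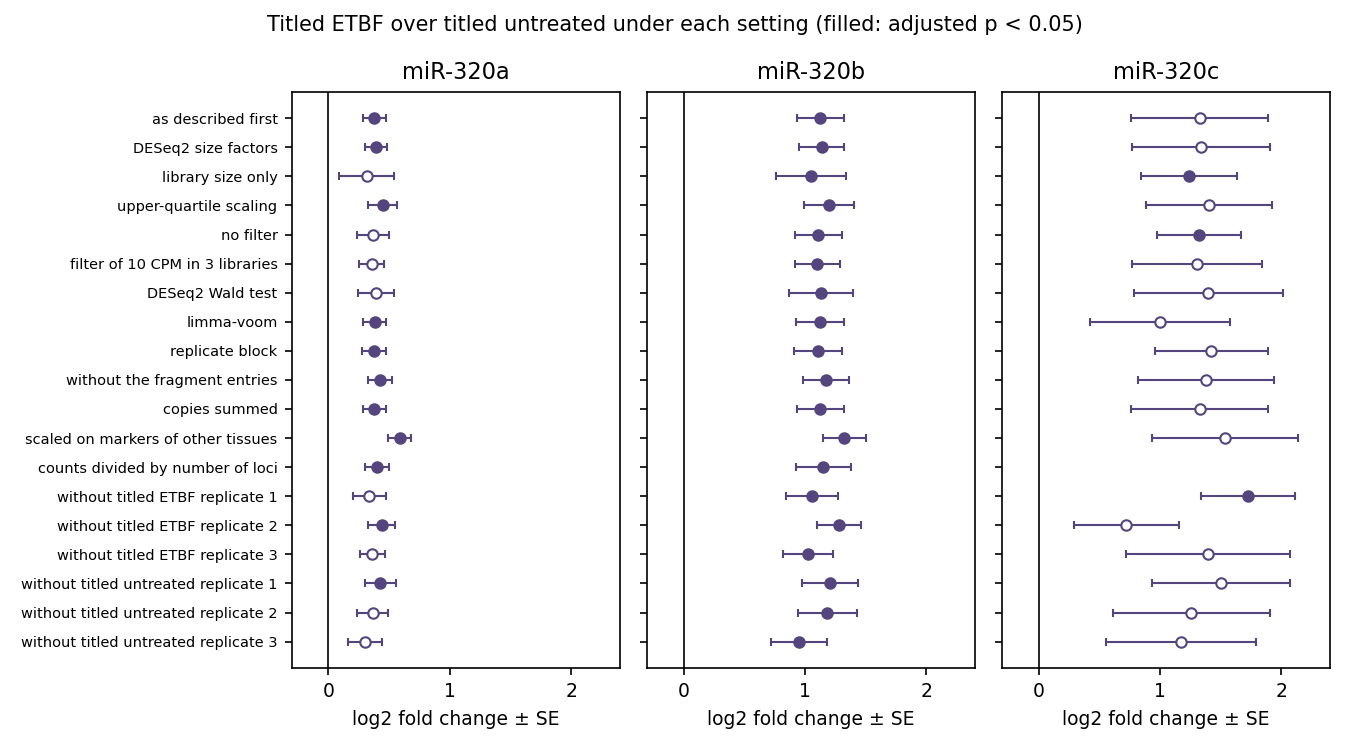
Log2 fold change ± SE (x axis) of miR-320a, miR-320b and miR-320c for libraries titled ETBF over those titled untreated under 19 settings (y axis; the top one is the fit described first); filled points passed at an adjusted p under 0.05. miR-320b passed in 19 settings, miR-320a in 11 and miR-320c in 3 of the 18 that tested it, and every value lies above 0. The setting that sums copies repeats the top one.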

How the data were processed

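The deposited files give raw counts of mature miRNAs, 1 file a library, with no normalisation. Trimmomatic, FastQC, featureCounts and build GRCh37.p5 are named per the submitters' processing notes; not given in the sources used here are their versions, the aligner, the annotation and how reads with several positions were handled. Since separate cultures are not stated, p-values reflect the spread of these libraries, possibly technical.

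Entries passing filterByExpr (minimum count 10; 195 of 2575, at least 99.6% of each library's counts) were scaled by TMM and tested together by edgeR's quasi-likelihood test (two-sided, Benjamini-Hochberg, threshold 0.05). The SE was taken as the absolute log2 fold change divided by the root of F. No entry had a copy suffix to sum. RefSeq matched 2260 of 2575 entries by miRNA name; the others were treated as having 1 locus. Members and lists were chosen with earlier results of these data known. Named entries were all members, tested entries of the lists, the 5 closest in profile and the nearest in level; miR-4429 was named for its seed. On data simulated for this comparison (196 entries tested), 92.9% of 28 entries changed 2-fold and 97.3% of 37 changed 4-fold were called. Of the calls, 4.62% were false. The simulation gave every entry the same spread between libraries and held no change as small as the 1.30-fold of miR-320a. Its rates therefore need not hold for single members. Tools were edgeR 4.0.16, DESeq2 1.42.0 and limma 3.58.1 in R 4.3.3. Alternatives were other scalings, filters and tests, the replicate number as a block, fragment entries (miR-7641, miR-6087, miR-1246) left out, division by loci, and each library left out in turn.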

Additional observations from a re-analysis of the deposited data

How the results depend on the processing

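All settings were planned except division by loci. The 19 settings count the fit described first and a summing of copies, which repeats that fit because no entry had a copy suffix. miR-320b passed in all 19 settings and no member changed sign in any setting that tested it. miR-320a passed in 11 of 19: besides the libraries named above, it fell short with library size only (0.32, adjusted p = 0.462), no filter (0.36, adjusted p = 0.0740), a filter of 10 CPM in 3 libraries (0.36, adjusted p = 0.0559) and DESeq2's Wald test (0.39, adjusted p = 0.0508). miR-320c passed with library size only (1.24, adjusted p = 0.0178), no filter (1.32, adjusted p = 0.00345) and without titled ETBF replicate 1. Leaving out single libraries gave 0.30 to 0.44 for miR-320a, 0.95 to 1.28 for miR-320b and 0.72 to 1.73 for miR-320c. The number of members past the threshold, 2, was 1 with the 10 CPM filter and with DESeq2, and 1 to 2 without single libraries.

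Scaling on markers of other tissues moved all entries by a median of 0.21 and gave 0.59 for miR-320a and 1.33 for miR-320b. The calls over all entries, 28, became 51 with no filter, 50 with that scaling and 17 to 59 without single libraries, 59 being without titled ETBF replicate 1. Division by loci changed the difference in the miR-320a share from -10.4 to -6.88 percentage points. Uncalled miR-451a turned from -0.06 to 0.0126 with upper-quartile scaling, 0.14 with the tissue markers and -0.32 to 0.0553 without single libraries. The cause of these moves was not tested. The ratio of miR-320b to miR-320a differed by 0.61 to 0.84 without single libraries.

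Same-numbered libraries deviated together with correlations of 0.18, 0.10 and 0.0523. Those with different numbers gave -0.16 to 0.0734, the highest being the only one above 0. That value was for titled ETBF replicate 3 with titled untreated replicate 2. The titles do not say that the numbers pair libraries, so the fit described first did not pair them. The replicate block gave 38 calls, with 0.38 for miR-320a (adjusted p = 0.0278), 1.11 for miR-320b (adjusted p = 0.00582) and 1.42 for miR-320c (adjusted p = 0.0526).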
